A study of Mus musculus with 4 samples.

Results

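Transcripts of 7 subunit genes of the GABA-A receptor, Gabra2, Gabra3, Gabra4, Gabra5, Gabrb1, Gabrb2 and Gabrg3, were followed in single-nucleus RNA sequencing of mouse brain after stroke. They were picked by symbol from the 46983 genes of the deposited count tables, and all 7 had a row in each library. The 4 groups compared were a sham control and mice at 1, 3 and 7 days from permanent middle cerebral artery occlusion (MCAO), a stroke model that closes the artery for good. All mice were male C57Black/6 animals of 3 months, and each group is 1 library made from 3 pooled forebrain hemispheres. With 1 library per group there is no replicate check of a difference between groups and no p-value is given. The surgical protocol in the labels names intact cortex as control tissue, whereas the design names forebrain hemispheres, and the sham control library held 335 striatal projection neuron-like nuclei. The study's own tally of nuclei per time point matches these libraries only if day 3 and day 7 are exchanged, and the deposited labels were kept throughout, so every statement that names day 3 or day 7 rests on those labels.

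The GABA-A receptor is a chloride channel opened by GABA, the main inhibitory transmitter of the forebrain. It is built from several subunits around a pore, usually of alpha, beta and gamma type, and the alpha subunit strongly shapes where in the membrane the receptor sits and which drugs it binds. Gabra2, Gabra3, Gabra4 and Gabra5 encode alpha subunits, Gabrb1 and Gabrb2 beta subunits, which carry much of the GABA binding site together with alpha, and Gabrg3 a gamma subunit. Receptors with the products of Gabra4 or Gabra5 are known for tonic inhibition outside the synapse, those with the products of Gabra2 or Gabra3 for inhibition at synapses.

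The 7 genes lie in long loci, with positions and lengths here from the GENCODE vM21 annotation of GRCm38, a later version than the one used for counting (vM8). Gabra2 (chr5:70957597-71095849, minus strand), Gabra4 (chr5:71569749-71658308, minus strand) and Gabrb1 (chr5:71658113-72149037, plus strand) share a chromosome, and the last 2 overlap by 196 bases at their starts. Gabra5 (chr7:57407672-57510059, minus strand) and Gabrg3 (chr7:56716465-57387188, minus strand) are neighbours. Gabra3 (chrX:72432681-72656848, minus strand) and Gabrb2 (chr11:42419757-42629028, plus strand) lie on other chromosomes. Of the Gabra5 locus, 90368 bases are overlapped by a further subunit gene on the opposite strand, and the counting strand is not stated, so Gabra5 values are uncertain. Genes on the opposite strand also overlap Gabra3 (2 genes), Gabrg3 (3) and Gabrb1 (3, Gabra4 among them), and their counts may likewise hold reads of another gene. The counts include intronic reads and can thereby grow with gene length, which runs from 88.6 kb (Gabra4) to 670.7 kb (Gabrg3).

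The 250 bases before the annotated start of Gabra2, Gabra3 and Gabrb2 are shown because these windows differ widely in base composition and because Gabra2 had the broadest difference between libraries. They are from RefSeq on GRCm38.p6, written 5′ to 3′ on the strand of the gene, with each CG pair in capitals. The windows are chr5:71095850-71096099 (minus strand), chrX:72656920-72657169 (minus strand) and chr11:42420190-42420439 (plus strand).
Gabra2: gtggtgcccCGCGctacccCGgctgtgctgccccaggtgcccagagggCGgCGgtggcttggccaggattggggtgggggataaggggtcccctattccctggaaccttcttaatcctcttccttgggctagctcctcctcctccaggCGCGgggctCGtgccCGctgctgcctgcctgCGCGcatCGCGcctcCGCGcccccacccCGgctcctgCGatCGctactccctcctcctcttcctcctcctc
Gabra3: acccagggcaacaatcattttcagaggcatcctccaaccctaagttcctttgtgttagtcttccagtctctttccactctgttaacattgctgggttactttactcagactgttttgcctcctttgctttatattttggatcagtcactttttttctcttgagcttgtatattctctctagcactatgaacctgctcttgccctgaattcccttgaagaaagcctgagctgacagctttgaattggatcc
Gabrb2: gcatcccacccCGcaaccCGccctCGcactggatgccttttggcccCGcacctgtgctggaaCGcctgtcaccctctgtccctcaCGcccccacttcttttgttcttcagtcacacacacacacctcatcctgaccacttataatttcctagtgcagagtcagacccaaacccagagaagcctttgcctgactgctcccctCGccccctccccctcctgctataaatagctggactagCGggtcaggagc
The windows shown held 18 CG pairs and 70.0% G+C for Gabra2, 8 CG pairs and 58.8% for Gabrb2, and no CG pair and 42.4% for Gabra3. Gabrb2 had windows at 2 further starts, with 8 CG pairs and 54.0% G+C and with 4 CG pairs and 36.8%, and a second Gabra3 window, which overlaps the one shown, had no CG pair and 39.2%. Over all 32817 promoter windows of this length the median was 6 CG pairs and 52.4% G+C, and 7.87% held no CG pair. The letters TATAAA, searched on both strands, were in 3 of 11 windows of the 7 genes (both overlapping windows of Gabra3 and 1 of Gabrb2) and in 12.4% of all windows. The letters TGACGTCA were in none of the 11 and in 1.55% of all windows. These matches describe the sequence and are no evidence of a bound factor.

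Depth was 23285489 to 42963698 UMIs (unique molecular identifiers, counts of captured RNA molecules) per library, and 7803 nuclei were kept, 1018 to 3097 per library. Nuclei of the day 1 library were deepest, with a median of 11029.5 UMIs against 5499 to 7040.5 in the other 3 libraries. Clustering gave 18 classes named from marker genes, 11 of neurons and 7 of other cells, each called by its markers with the ending -like, while 6 clusters of 844 nuclei stayed unnamed. Between 5 and 48 hippocampal nuclei were found per library, so hippocampal classes are given as levels. Their differences between days enter only the counts over all 18 classes. The libraries shared 9 nuclear barcodes. Levels are CPM, the UMIs of a gene over all UMIs of the nuclei of a class in a library, and means are given with the SD over the 4 libraries, which also holds any difference between days. A class is a cluster of the same nuclei, so levels between classes are a description with no test.

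In the pool of 4362 neuronal nuclei all 7 genes were transcribed. Divided by gene length, mean levels were alike for Gabra4 (206.6 ± 20.6 CPM per 100 kb, SD, n = 4), Gabra2 (195.9 ± 36.9), Gabrb2 (195.9 ± 13.5), Gabrb1 (182.5 ± 8.29) and Gabrg3 (170.3 ± 16.2). Gabra5 (57.4 ± 6.16) and Gabra3 (39.0 ± 1.30) were lower. A UMI of Gabrb1 was seen in 94.0% of neuronal nuclei, of Gabrg3 in 87.6%, of Gabrb2 in 86.1%, of Gabra2 in 72.9%, of Gabra4 in 65.4%, of Gabra3 in 43.4% and of Gabra5 in 31.6%, at a median depth of 8970 UMIs. These shares also depend on depth and gene length. On the scale of CPM per 100 kb, 5 of the subunits were at similar levels in neuronal nuclei and 2 at lower ones. Whether counts grow in proportion to gene length was not tested.

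Gabra2, whose subunit is a main alpha of forebrain synapses, had its highest levels in 5 neuron classes that overlapped one another. These were the Baiap3, Zim1 and Glra3 subcortical neuron-like class (400.9 ± 79.0 CPM), dentate granule neuron-like (398.8 ± 143.8), hippocampal pyramidal neuron-like (390.5 ± 99.2), striatal projection neuron-like (384.0 ± 80.0) and upper-layer cortical nuclei (359.7 ± 62.5). Astrocyte-like nuclei followed with 292.3 ± 77.7 CPM. Among cortical glutamatergic classes, mean Gabra2 went down from 359.7 in the upper to 243.4 ± 63.1 in the middle and 118.6 ± 21.2 CPM in the deep layers. The upper-layer and deep-layer ranges did not overlap, with 269.7 as the lowest upper-layer value and 143.8 as the highest deep-layer value.

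Gabra3, an alpha subunit known from monoaminergic and deep-layer neurons, was highest in the Baiap3, Zim1 and Glra3 class (143.5 ± 11.4 CPM), Lhx6 GABAergic interneuron-like nuclei (127.4 ± 18.0) and telencephalic glutamatergic neuron-like nuclei (119.0 ± 10.6), which overlapped in turn. Oligodendrocyte precursor-like nuclei, at 78.3 ± 15.5 CPM, came next after 6 neuron classes and stood above the middle-layer class (47.3 ± 8.99) without overlap. Striatal projection neuron-like nuclei held only 29.7 ± 5.86 CPM, in the range of microglia-like nuclei (31.2 ± 10.1). In the dentate granule neuron-like class 7 UMIs were found in all 55 nuclei.

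Gabra4, known for tonic currents in thalamus, striatum and dentate gyrus, had the clearest single peak of the alpha genes. In Slc17a6 subcortical glutamatergic neuron-like nuclei, a class that carries the vesicular glutamate transporter of the thalamus, its levels were 590.3 CPM in the sham control, 385.8 on day 1, 500.1 on day 3 and 466.3 on day 7. Every one of these values was above the highest value of the next class, striatal projection neuron-like nuclei (282.7 ± 25.8, up to 311.1 CPM). Upper-layer nuclei (197.7 ± 36.4) in turn lay above telencephalic glutamatergic neuron-like nuclei (145.6 ± 7.13) without overlap. The Baiap3, Zim1 and Glra3 class, among the highest for Gabra2, was lowest of all neuron classes for Gabra4 (66.8 ± 5.77 CPM).

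Gabra5, the alpha subunit known from hippocampal pyramidal cells, was highest in hippocampal pyramidal neuron-like nuclei (245.1 ± 80.7 CPM). This level rests on 167 UMIs of 62 nuclei, of which 4 were in the sham control library. Dentate granule neuron-like nuclei (162.6 ± 67.9) overlapped with them. Of the classes with at least 20 nuclei in every library, deep-layer cortical (93.5 ± 18.6) and telencephalic glutamatergic neuron-like nuclei (84.9 ± 12.6) were highest, and the latter lay above the Baiap3, Zim1 and Glra3 class (57.1 ± 5.60) without overlap. Upper-layer nuclei held 29.1 ± 4.64 CPM and middle-layer nuclei 32.8 ± 13.6 CPM, the latter on 65 UMIs, and their ranges overlapped. Of the cortical layers the deep one was thus highest for Gabra5, whereas it was lowest for Gabra2.

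Gabrb1, a beta subunit gene, was the only one of the 7 whose highest class was not neuronal. In astrocyte-like nuclei it stood at 2078 CPM in the sham control, 1679 on day 1, 2629 on day 3 and 2155 on day 7. The mean of 2135 ± 389.6 was followed by the Slc17a6 subcortical class (1517 ± 293.5) and both hippocampal classes (1486 ± 150.1 in dentate and 1484 ± 269.1 in pyramidal nuclei), and the ranges of the first 2 overlapped because the lowest astrocyte-like value, on day 1, was below the highest Slc17a6 value of 1865. Ependymal cell-like nuclei held 764.0 ± 173.3 CPM, within the range of several neuron classes. Lhx6 interneuron-like nuclei were lowest among neurons (479.4 ± 79.2) and did not overlap with the class above them.

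Gabrb2, the other beta subunit gene, had no class that stood apart at the top. Slc17a6 subcortical nuclei (632.4 ± 71.5 CPM), Adarb2 GABAergic interneuron-like nuclei (606.4 ± 107.2) and middle-layer cortical nuclei (560.4 ± 52.9) were highest and overlapped. No class of the 18 was separated from its neighbour in this order. Hippocampal pyramidal neuron-like nuclei held 133.2 ± 59.6 CPM, the lowest level of a neuron class, which was near microglia-like nuclei (127.7 ± 66.8).

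Gabrg3, a gamma subunit gene, was highest in 3 classes known to release GABA themselves. Adarb2 interneuron-like (1889 ± 192.9 CPM), striatal projection neuron-like (1762 ± 196.3) and Lhx6 interneuron-like nuclei (1662 ± 115.9) overlapped with one another and lay above the Baiap3, Zim1 and Glra3 class (1147 ± 160.1) without overlap. Cortical glutamatergic classes differed widely, with 1045 ± 169.8 CPM in the deep, 654.6 ± 113.4 in the upper and 156.4 ± 62.0 in the middle layers. The highest middle-layer value, 225.9 in the sham control, was below the lowest upper-layer value, 566.5 on day 1. Dentate granule neuron-like nuclei were as low as the middle layers (147.2 ± 131.1 CPM).

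**Figure D1:**
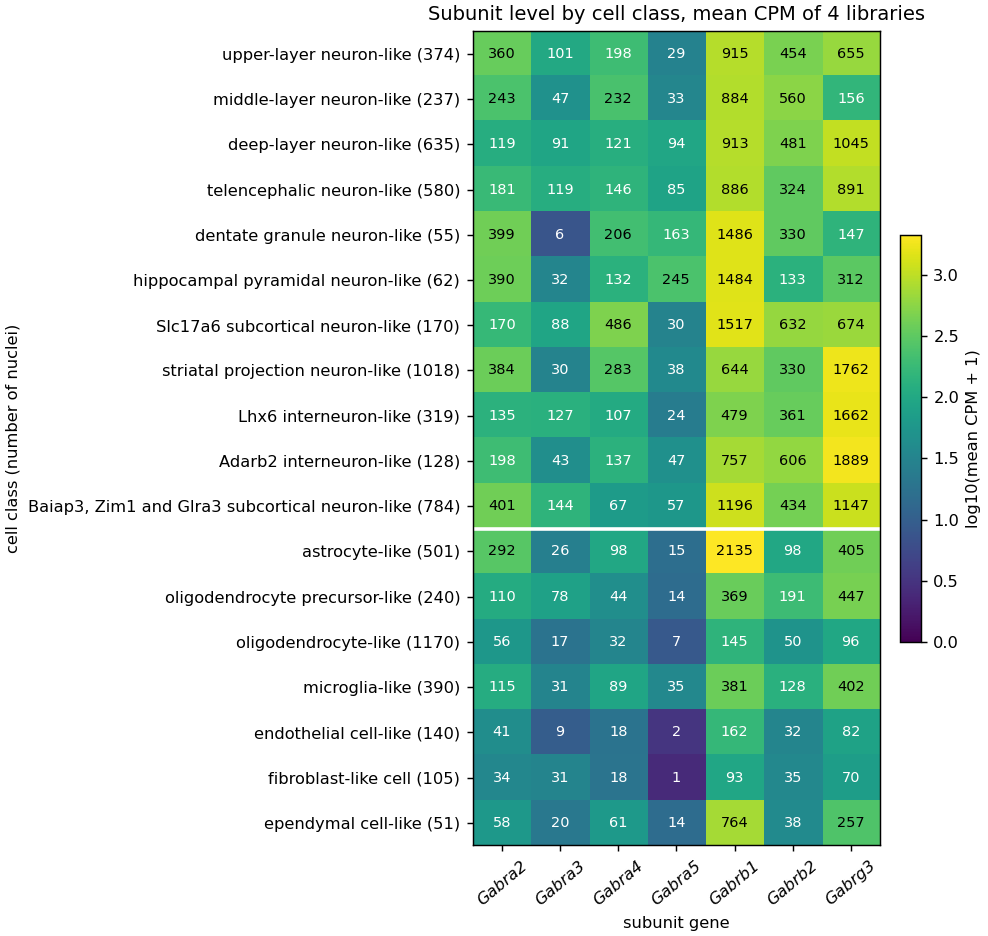
Mean level of each subunit gene (columns) in 18 cell classes (rows, number of nuclei in brackets). Numbers are the mean CPM of 4 libraries, colour is log10 of the mean CPM plus 1, and the white line parts neuron classes from other cells; Gabrb1 peaks in astrocyte-like nuclei (2135), Gabra4 in the Slc17a6 class (485.6) and Gabrg3 in Adarb2 interneuron-like nuclei (1889), or with thinned nuclei in striatal projection neuron-like nuclei.

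The makeup of the alpha genes was set beside these levels as the percent of the UMIs of the 4 alpha genes that each took. The percent depends on gene length and is compared only for the same gene, between classes or between libraries. Gabra4 took 62.9 ± 4.03% in Slc17a6 subcortical nuclei but 10.1 ± 1.19% in the Baiap3, Zim1 and Glra3 class. Gabra2 took 59.6 ± 5.02% in the latter, 52.0 ± 4.33% in upper-layer and 27.8 ± 2.19% in deep-layer nuclei. Gabra3 took 33.1 ± 8.88% in Lhx6 interneuron-like nuclei and 4.15 ± 1.34% in striatal projection neuron-like nuclei. Gabra5 took 22.2 ± 5.20% in deep-layer and 4.26 ± 0.752% in upper-layer nuclei. The order of these percents was the same in all 4 libraries for the pairs of classes named here.

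**Figure D2:**
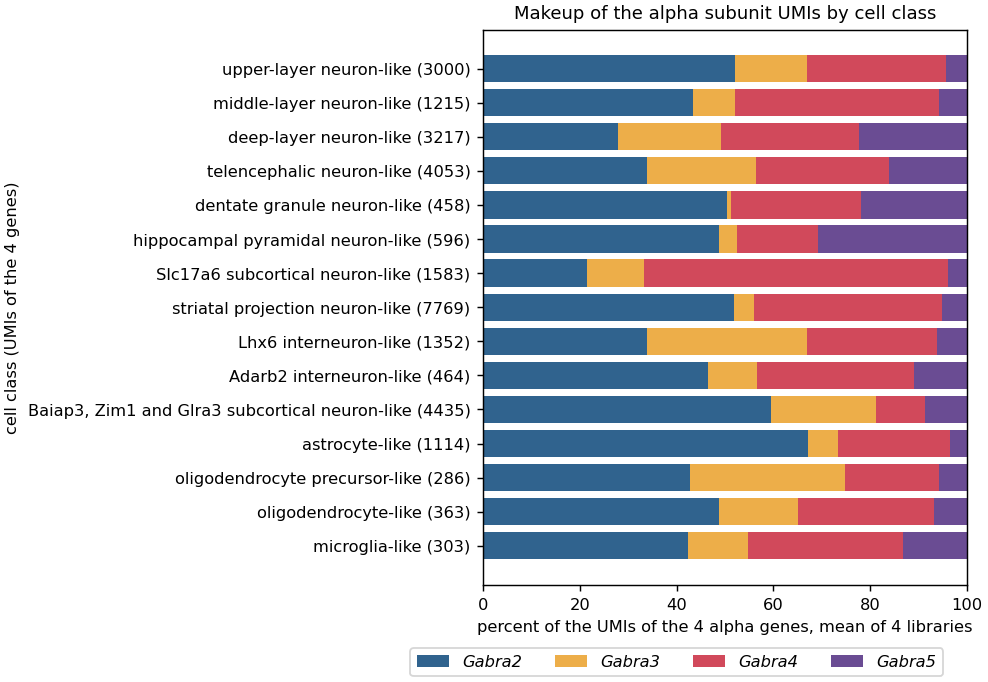
Percent of the UMIs of the 4 alpha subunit genes taken by each gene (bars, mean of 4 libraries) in 15 cell classes, with the UMIs of the 4 genes in brackets. Gabra4 fills most of the bar in Slc17a6 subcortical nuclei (62.9%) and Gabra2 in astrocyte-like nuclei (67.1%).

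Within striatal projection neuron-like nuclei, 534 nuclei with more UMIs of genes of the direct pathway (Drd1 type) and 464 with more of the indirect pathway (Drd2 type) were set apart, with 39 and 12 nuclei within 1 UMI of the cut and 20 ties left out. Gabrg3 was lower in the Drd1-type nuclei of every library, at 1596, 1298, 1938 and 1585 CPM in the sham control and on days 1, 3 and 7, against 1948, 1786, 2123 and 1933 CPM. For the other 6 genes the means of Drd1-type and Drd2-type nuclei differed by less than the larger of their SDs, except for Gabra5 (42.7 ± 9.91 against 31.2 ± 9.71 CPM).

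The genes whose levels across the 18 classes were most like those of each member were sought among 13139 genes, by Pearson's r of log2(CPM + 1) of the class means. The classes share 4 libraries and differ in depth, so r is a description. Gabrb2 ran closest to Scn1a (0.961), a sodium channel gene, Cacna1b (0.947), a calcium channel gene, and Hecw1 (0.946). Gabra2 was most like Inhba (0.898), Cd226 and Gm16351, Gabra3 most like Elavl4 (0.892), a neuronal RNA-binding protein gene, Igsf9b and 4932441J04Rik, and Gabra4 most like Gm19031 (0.916), Lrrc7 and Gm43047. Gabrb1 was most like Trim9 (0.912), Gm37679 and Lgi1. For Gabra5 the closest was the subunit gene that overlaps it (0.919), followed by Pde4a (0.914) and Stxbp5l, and for Gabrg3 it was Gm9962 (0.920), annotated on the opposite strand 0.1 kb away, then Gm19744 and Gm28755. Reads of Gabra5 and the gene that overlaps it cannot be told apart without a known strand. Among pairs of members r ran from 0.25 (Gabra3 and Gabra5) to 0.82 (Gabra2 and Gabrb1).

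Outside neurons, astrocyte-like nuclei carried Gabrb1 and Gabra2 at neuronal levels or above. Gabrb1 was higher in astrocyte-like than in pooled neuronal nuclei in 4 of 4 libraries, with a mean log2 ratio of 1.24 ± 0.28 (SD, n = 4), which is 2.36-fold. Gabra2 was higher in 2 of 4 libraries with a mean log2 ratio of 0.09 ± 0.18, so its level in both was not set apart beyond the spread. The other 5 genes were lower in astrocyte-like nuclei in every library, with mean log2 ratios of -0.99 for Gabra4, -1.62 for Gabrg3, -1.76 for Gabra3, -2.11 for Gabrb2 and -2.36 for Gabra5. The size of these was less certain, with -1.61 for Gabra5 without day 7 (1 UMI there), -3.03 for Gabrb2 with thinned nuclei and -2.40 for Gabra3 as the mean of nuclei. A UMI of Gabrb1 was seen in 97.0% of 501 astrocyte-like nuclei (95% exact binomial interval 95.1 to 98.3%) and in 20.5% of 1170 oligodendrocyte-like nuclei (18.2 to 22.9%), at median depths of 3299 and 2137 UMIs. With every nucleus thinned to 1000 UMIs the shares were 81.6% and 12.2%. All intervals in the text cover counting error only.

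Free RNA in droplets without a nucleus held the 7 genes at 1303 to 1737 CPM in sum, against 2739 to 3431 CPM in astrocyte-like and 320.6 to 539.1 CPM in oligodendrocyte-like nuclei. Gabra2 in astrocyte-like nuclei was seen in 47.5% of nuclei, against 9.40% of oligodendrocyte-like nuclei (thinned, 19.6% and 4.44%). Oligodendrocyte precursor-like nuclei had their own pattern. Gabra3 there was near the neuronal level, with a mean log2 ratio of -0.18 ± 0.33 to pooled neurons and 1 of 4 libraries higher, while the other 6 genes were lower in every library, by -1.14 (Gabrb2) to -2.45 (Gabra5) on average.

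**Figure D3:**
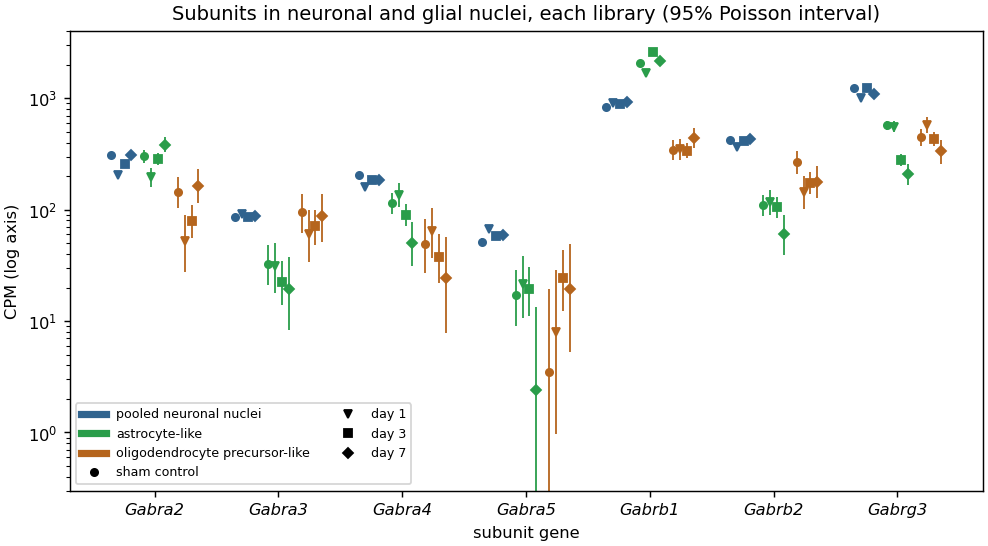
CPM (log axis) of each gene in pooled neuronal nuclei (blue), astrocyte-like (green) and oligodendrocyte precursor-like nuclei (brown). Each point is 1 library, its shape gives the group, and bars are 95% Poisson intervals of the UMIs; the astrocyte-like Gabrb1 values (1679 to 2629) all lie above the neuronal ones (839.3 to 933.7).

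After MCAO, the summed level of the 7 genes in neuronal nuclei stood at 3147 CPM in the sham control, 2819 on day 1, 3125 on day 3 and 3100 on day 7. Day 1 was the low point, at 0.896 times the sham control (95% conditional binomial interval 0.882 to 0.910), while days 3 and 7 were at 0.993 (0.980 to 1.01) and 0.985 (0.970 to 1.00). On day 1 Gabra2, Gabra4, Gabrb2 and Gabrg3 were below the sham control in the pool, and Gabra3, Gabra5 and Gabrb1 above it. The largest step in CPM was that of Gabrg3, the longest gene, from 1238 to 1014 CPM. The summed level was lower on day 1 in 9 of the 9 neuron classes with at least 20 nuclei in every library, at ratios from 0.791 (Slc17a6 subcortical) to 0.955 (telencephalic). With these classes weighted equally, which takes out their shares of the pool, the log2 ratio on day 1 was -0.20 in place of -0.16. How many other genes were lower in all of these classes was not counted. A changed mix of nuclei within a class cannot be told apart from a lower level per nucleus.

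Single genes were called when they differed at least 1.5-fold from the sham control with at least 50 UMIs in the 2 libraries. In pooled neuronal nuclei, 1 of the 7 was called on day 1, Gabra2, which was 1.51-fold lower and so close to the limit of the rule. Of 13586 genes tested there, 2.45% were lower and 5.07% higher by the same rule. On days 3 and 7 none of the 7 was called, where 3.11% and 4.11% of genes were lower and 2.53% and 3.81% higher. The median log2 ratio of the 7 genes on day 1 was -0.19, against 0.03 for all genes tested.

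Gabra2 in pooled neuronal nuclei was at 310.0 CPM in the sham control, 205.0 on day 1, 256.0 on day 3 and 312.4 on day 7. Day 1 was thus the lowest library, and day 7 was level with the sham control. The day 1 ratio was 0.661 (0.626 to 0.698), and its log2 ratio of -0.60 stayed between -0.50 and -0.65 under every alternative that was run. It fell short of 1.5-fold under 2 of them, with unnamed neuronal clusters added (-0.50) and with neuron classes weighted equally (-0.57). Neuronal nuclei of day 1 were deeper, with a median of 14316.5 UMIs against 7822 to 9154 in the other libraries. At an equal depth of 1000 UMIs per nucleus the log2 ratio was -0.65. Its percent of the alpha UMIs in neurons, which is drawn from the same Gabra2 UMIs, was 47.7% in the sham control, 39.2% on day 1, 43.8% on day 3 and 48.6% on day 7.

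The lower Gabra2 level on day 1 was found in many classes, although its size there differed with nuclei thinned to the same number of UMIs, which also weights nuclei equally. It was below the sham control in 12 of the 13 classes with at least 20 nuclei in every library, and at least 1.5-fold lower in 8 of them, 5 of 9 neuron classes and 3 of 4 others. At an equal depth of 1000 UMIs per nucleus, 6 of these 8 classes were still lower but only 2 by at least 1.5-fold, telencephalic (log2 ratio -0.80) and microglia-like nuclei (-1.66). Of 2108 genes with enough UMIs in all 9 neuron classes, 9 (0.427%) were at least 1.5-fold lower in 5 or more of them without thinning. Gabra2 was singled out for this count after its values were seen. The share of genes merely below the sham control in 12 or more of the 13 classes was not counted. The class without a lower value was Adarb2 interneuron-like nuclei (190.9 CPM in the sham control and 203.0 on day 1).

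Striatal projection neuron-like nuclei, the largest neuron class, had Gabra2 at 440.9 CPM in the sham control, 281.9 on day 1, 359.1 on day 3 and 454.0 on day 7. The day 1 ratio was 0.639 (0.578 to 0.707), where 3.37% of genes in the class were lower by the rule, the log2 ratio was -0.65 and at equal depth -0.41, and the level was back at that of the sham control on day 7. Both types of nuclei within the class showed it, with 430.8 and 271.7 CPM in Drd1-type and 452.7 and 290.5 CPM in Drd2-type nuclei in the sham control and on day 1. Telencephalic glutamatergic neuron-like nuclei went from 209.9 to 131.5 CPM, at a ratio of 0.627 (0.517 to 0.756), where 6.03% of genes were lower. The Baiap3, Zim1 and Glra3 class (458.4 and 305.6 CPM, ratio 0.667) was at the very edge of the rule and not called, and upper-layer nuclei (376.9 and 269.7) were lower by less than 1.5-fold.

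In Slc17a6 subcortical nuclei Gabra2 was lower on each day. It was at 277.3 CPM in the sham control, 122.6 on day 1, 129.0 on day 3 and 152.4 on day 7, at ratios of 0.442, 0.465 and 0.550, on 61 to 109 UMIs per library. All 3 injured libraries were lower than the sham control, and no interval reached 1, where 8.04%, 6.89% and 7.55% of genes in the class were lower on days 1, 3 and 7. At equal depth the log2 ratios were -0.17, -1.16 and -0.056, so the differences on days 1 and 7 were small there. Lhx6 interneuron-like nuclei (136.5 and 80.5 CPM) and middle-layer nuclei (285.0 and 182.2 CPM) were past the fold on day 1 on 55 and 84 UMIs, where 4.57% and 6.36% of genes were lower, but with nuclei thinned to 1000 UMIs their log2 ratios turned to 0.21 and 0.18. Astrocyte-like nuclei had 301.9, 195.2, 287.3 and 384.9 CPM in the order of time, so that day 1 was again lowest, at a ratio of 0.647 (0.506 to 0.821), where 11.8% of genes were lower. Free RNA went the same way by a smaller step, at 210.6 CPM of Gabra2 in the sham control and 172.9 on day 1. With free RNA subtracted, the day 1 log2 ratio of Gabra2 was -0.61 in pooled neuronal and -0.65 in astrocyte-like nuclei, against -0.60 and -0.63 without subtraction. With thinned nuclei the astrocyte-like value was -0.53, short of 1.5-fold.

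**Figure D4:**
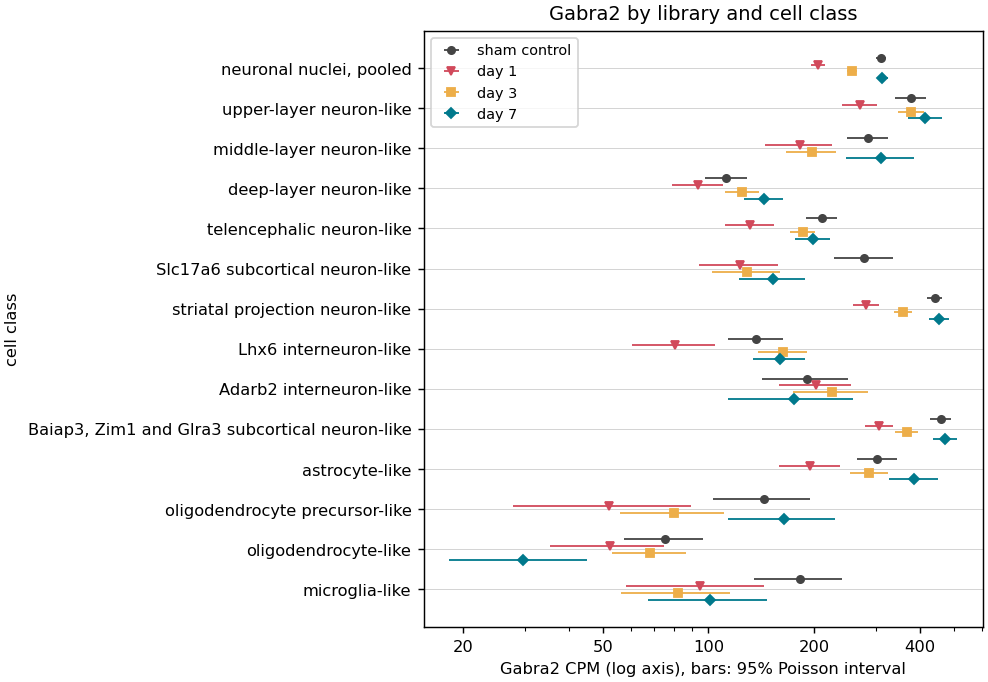
Gabra2 CPM (log axis) in each library for pooled neuronal nuclei and the 13 classes with at least 20 nuclei in every library. Bars are 95% Poisson intervals of the UMIs; the day 1 point (red triangle) lies below the sham control (grey circle) in every row except Adarb2 interneuron-like nuclei.

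Across the 9 neuron classes, 2 of 58 values of the 7 genes were higher and 9 lower by the same rule on day 1, where 5.96% of all values were higher and 5.33% lower. On day 3 it was 1 higher and 2 lower of 58 (3.73% and 5.22% of all), and on day 7 2 higher and 2 lower of 57 (4.11% and 7.32%). Of the 9 lower values on day 1, 5 were those of Gabra2, and the other 4 are given with their genes here. With thinned nuclei 4 of these 9 were still at least 1.5-fold lower, 1 of them that of Gabra2. Counts on days 3 and 7 were near the background. Over all 18 classes and 3 days, 14 of 258 values of the 7 genes were higher and 41 lower, where 6.35% and 7.29% of all values were. These counts include classes with few nuclei in a library. Gabrg3 in hippocampal pyramidal neuron-like nuclei, at 0.0 CPM in the sham control, was among the higher calls.

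Gabra4 was below the sham control on day 1 in 9 of 9 neuron classes, by at least 1.5-fold in 2. These were the Slc17a6 class (590.3 to 385.8 CPM, ratio 0.654, 0.537 to 0.795) and Lhx6 interneuron-like nuclei (123.1 to 71.7, ratio 0.583, 0.407 to 0.823). Of genes with enough UMIs in all 9 classes, 6.26% were at least 1.5-fold lower in 2 or more. The share of genes below the sham control in all 9 was not counted, and the classes share the same libraries. In pooled neuronal nuclei Gabra4 was at 203.5, 159.1, 184.8 and 184.6 CPM in the order of time, so that each injured library was somewhat lower.

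Gabra5 in deep-layer cortical nuclei went against this direction. It was at 66.4 CPM in the sham control, 108.6 on day 1, 99.0 on day 3 and 100.0 on day 7, and every injured library was above the sham control. The ratios were 1.64 (1.29 to 2.08) on day 1 and 1.51 (1.19 to 1.91) on day 7. On these days 5.12% and 3.92% of genes in the class were higher by the rule. With thinned nuclei the day 1 value stayed past the fold. Of the 2 higher calls in neuron classes on day 7, this one and that of Gabra3 in upper-layer nuclei, 1 stayed past it. Gabra5 overlaps another subunit gene, as stated above.

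Gabra3 was steady in pooled neuronal nuclei, at 85.4, 91.7, 85.7 and 87.1 CPM. It was called higher in upper-layer nuclei on day 7 (79.8 to 120.2 CPM, ratio 1.51, 1.11 to 2.06), where 5.33% of genes were higher. Of this call and that of Gabra5 in deep-layer nuclei on day 7, 1 stayed past the fold with thinned nuclei. In middle-layer nuclei Gabra3 was past the fold on day 1 (1.59) and day 3 (1.51) on 25 to 39 UMIs per library, both intervals included 1, and 9.79% and 4.33% of genes were higher.

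Gabrb1 and Gabrb2 differed little in pooled neurons. Gabrb1 was at 839.3 CPM in the sham control and 914.2, 896.4 and 933.7 after MCAO, and Gabrb2 at 419.7 CPM and then 369.0, 417.5 and 434.0. Gabrb1 was lower in Slc17a6 nuclei on day 7 (1865 to 1171 CPM, ratio 0.628, 0.564 to 0.699), where 7.55% of genes were. Gabrb2 was lower in upper-layer nuclei on day 1 (537.4 to 358.1 CPM, ratio 0.666, 0.585 to 0.759), at the edge of the rule, where 6.64% of genes were lower. Each was past the fold in 1 of 9 neuron classes, on 1 day, while 22.6% (day 7) and 20.4% (day 1) of genes with enough UMIs in all 9 were lower in at least 1, so such a count was common.

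Gabrg3 was at 1238 CPM in pooled neurons of the sham control, 1014 on day 1, 1226 on day 3 and 1089 on day 7. Middle-layer nuclei, where its level is low, held 225.9, 78.1, 144.3 and 177.2 CPM, with day 1 lowest at a ratio of 0.346 (0.234 to 0.497) on 36 UMIs. The day 3 ratio of 0.639, where 4.83% of genes were lower, turned to a log2 ratio of 0.27 with thinned nuclei. In its 3 highest classes no day was past the fold, with 1540 to 2018 CPM over the libraries in striatal and 1528 to 1810 CPM in Lhx6 nuclei.

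**Figure D5:**
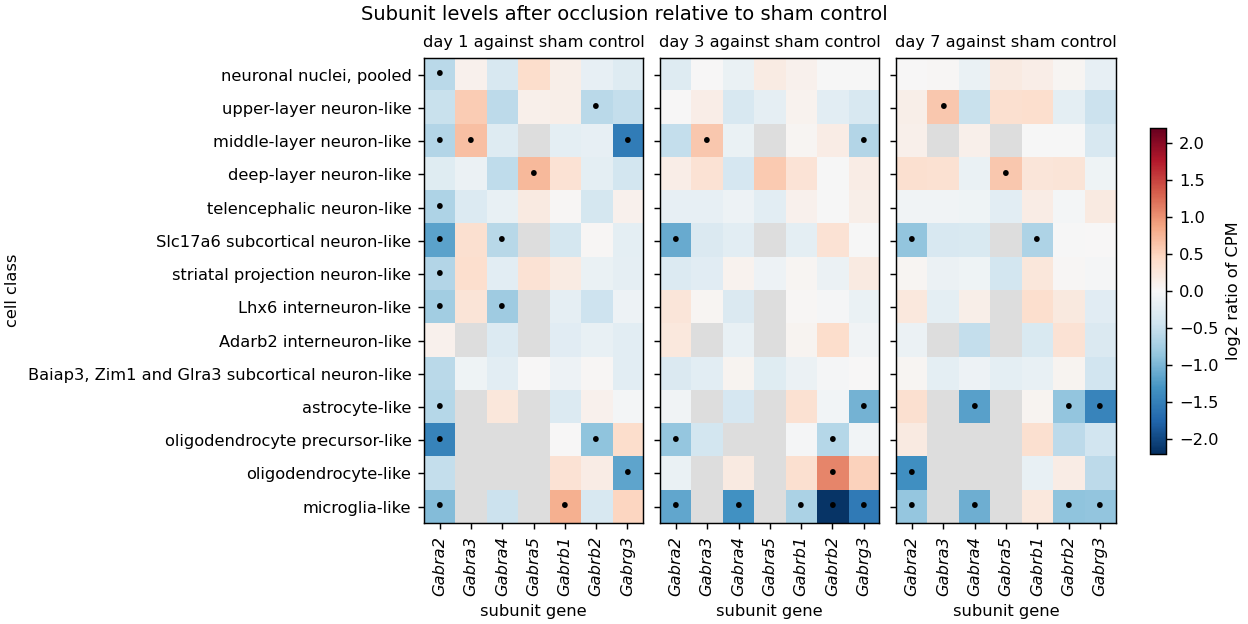
Log2 ratio of CPM to the sham control on days 1, 3 and 7 (panels) for each gene (columns) in pooled neuronal nuclei and 13 classes (rows). Red is higher and blue lower, a dot marks at least 1.5-fold, and grey cells had under 50 UMIs in the 2 libraries; the Gabra2 column is blue on day 1 in all rows but one.

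In astrocyte-like nuclei the sum of the 7 genes was at 3226, 2739, 3431 and 2882 CPM in the order of time, at ratios of 0.849 (0.795 to 0.907), 1.06 (1.01 to 1.12) and 0.893 (0.833 to 0.958). Gabrb1, which made up most of it, was not past the fold on any day. Gabrg3 was at 572.4 CPM in the sham control, 558.4 on day 1, 278.3 on day 3 and 209.3 on day 7. Days 3 and 7 were thus the low ones, with ratios of 0.486 (0.414 to 0.570) and 0.366 (0.287 to 0.461), where 8.82% of genes were lower on day 3. At equal depth the log2 ratios were -0.45 and -1.30, so the day 3 value was no longer past the fold. On day 7 Gabra4 (115.0 to 50.5 CPM, ratio 0.439) and Gabrb2 (109.8 to 60.1, ratio 0.548) were lower too, so that 3 of 5 testable genes were lower, where 13.7% of 4731 genes were. Neuronal marker RNA (Snap25, Syt1, Rbfox3, Meg3 and Snhg11) in astrocyte-like nuclei was 25.0% of its neuronal level in the sham control, 38.4% on day 1, 17.5% on day 3 and 14.1% on day 7. It was thus lowest in the same libraries as Gabrg3. With free RNA subtracted the Gabrg3 log2 ratios were -1.18 on day 3 and -1.56 on day 7, against -1.04 and -1.45, and the part of neuronal RNA held in other ways was not tested.

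In microglia-like nuclei the 7 genes went from 1395 CPM in the sham control to 1711 on day 1, 601.6 on day 3 and 1013 on day 7. On day 3, 5 genes were called lower, at ratios from 0.223 (Gabrb2) to 0.619 (Gabrb1), where 15.0% of genes were lower. At equal depth Gabra2 turned to a log2 ratio of 0.11 (0.20 as the mean of nuclei), and of the other 4 only Gabrb2 (-0.76) was past the fold. Neuronal marker RNA in these nuclei was 46.0%, 33.8%, 19.5% and 32.2% of its neuronal level, and the summed genes were 44.3%, 60.7%, 19.3% and 32.7% of theirs. Both were lowest on day 3. With free RNA subtracted the 5 log2 ratios ran from -4.85 (Gabrb2) to -1.13 (Gabrb1), and the part of neuronal RNA held in other ways was not tested. On day 7 Gabra2, Gabra4, Gabrb2 and Gabrg3 were lower, at ratios of 0.475 to 0.558, where 11.7% of genes were, but with thinned nuclei Gabrb2 turned to a log2 ratio of 0.49. On day 1 Gabra2 was lower (0.519) and Gabrb1 higher (337.5 to 579.2 CPM, ratio 1.72), where 14.1% of genes were lower and as many higher. The Gabrb1 value turned with thinned nuclei to a log2 ratio of -0.94.

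The oligodendrocyte lineage gave few UMIs. In oligodendrocyte precursor-like nuclei Gabra2 was at 143.6, 52.2, 80.0 and 164.6 CPM and Gabrb2 at 266.2, 144.5, 173.3 and 179.1 CPM in the order of time. Gabra2 was past the fold on days 1 and 3 (ratios 0.363 and 0.557) and so was Gabrb2 (0.543 and 0.651), but with thinned nuclei the Gabrb2 log2 ratios turned to 1.73 and 1.92, and those of Gabra2 were -0.27 on day 1, no longer past the fold, and -0.79 on day 3. In this class 8.81% of genes were lower on day 1 and 6.51% on day 3. In oligodendrocyte-like nuclei Gabrg3 was lower on day 1 (0.449), Gabrb2 higher on day 3 (2.10) and Gabra2 lower on day 7 (0.393), on 21 to 87 UMIs per library, where 8.84%, 7.06% and 9.33% of genes were called in those directions. With thinned nuclei the higher Gabrb2 value was no longer past the fold. Over the 4 classes of non-neuronal cells, 1 higher and 5 lower of 18 values were called on day 1 (8.4% and 10.7% of all values), 1 and 8 of 20 on day 3 (10.3% and 8.42%) and 0 and 8 of 18 on day 7 (7.77% and 11.2%). The share of lower values was above the background on each day in these classes, but with thinned nuclei only 2 of the 5 lower values of day 1, 2 of the 8 of day 3 and 6 of the 8 of day 7 were still past the fold. Neuronal marker RNA was 24.6%, 20.4%, 22.1% and 19.7% of its neuronal level in precursor-like and 13.1%, 10.4%, 15.6% and 8.82% in oligodendrocyte-like nuclei in the order of time. With free RNA subtracted the calls named in these classes kept their direction, and the part of neuronal RNA held in other ways was not tested.

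Other genes of GABA signalling were counted from lists by the same rule. Of the 12 other subunit genes, 5 had enough UMIs in pooled neuronal nuclei and none was called on any day, where 2.53% to 5.07% of all genes were higher and 2.45% to 4.11% lower. Of 13 scaffold and trafficking genes, which anchor or carry the receptor, none was called on days 1 and 3, and on day 7 Plcl1, whose product binds Gabarap, was higher (175.3 to 270.3 CPM, ratio 1.54, 1.46 to 1.63), where 3.81% of genes were. Its levels in time were 175.3, 206.4, 229.1 and 270.3 CPM. Of the 4 chloride transporter and GABA-B receptor genes none was called in pooled neuronal nuclei, whereas some were in single neuron classes.

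In astrocyte-like nuclei Plcl2 was higher on day 1 (95.4 to 199.2 CPM), and Plcl1 (422.1 to 218.7), Clptm1 (53.6 to 35.1, on 18 UMIs on day 1, with an interval of the ratio that included 1) and Gabarap (54.9 to 17.6) were lower, of 6 scaffold genes tested, where 6.48% of genes were higher and 11.8% lower. On day 3 Gabarap (82.6 CPM) and Gabarapl1 (26.1 to 49.8) were higher, of 8, where 7.11% of genes were, and on day 7 none of 6 was called. Of the 4 chloride transporter and GABA-B genes, Slc12a5, the neuronal chloride extruder, was lower on day 7 (64.0 to 16.8 CPM), and so was Slc12a2, the chloride importer (70.6 to 45.7), although its interval of 0.363 to 1.11 included 1. On that day 13.7% of genes were lower, and neuronal marker RNA was at its lowest in these nuclei, as given above. For the other subunit genes 1 of 4 was lower on each day, where 11.8%, 8.82% and 13.7% of genes were.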

How the data were processed

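The libraries were droplet-based 3′ single-nucleus libraries. Per the study's methods and the submitters' processing notes, the authors mapped reads with STAR 2.7.3a to GRCm38 (mm10), assigned reads in exons and introns to genes of GENCODE vM8, and collapsed UMIs. The deposited values are raw UMI counts per gene and barcode, with no filter on barcodes and no removal of free RNA. The strand used in counting is not given in the sources used here. The 7 members, the markers and the gene lists were chosen with earlier results of these data known.

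Nuclei were called per library by a re-implementation of the emptyDrops test (droplets up to 1000 UMIs as background, false discovery rate under 0.001, 10000 Monte Carlo draws), giving 7949 nuclei. The 146 with the highest Scrublet scores (scanpy 1.11.5), the share expected from loading at 0.8% per 1000 nuclei, were removed as doublets. The rest were clustered in R 4.3.3 with Seurat 5.3.0 and sctransform 0.4.2 (30 principal components, resolution 0.8), with the members and listed genes left out of the 2991 features. Clusters were named from markers.

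UMIs were summed per class and library and divided by the class total (CPM). The text names the 7 members in every class, listed genes called at least 1.5-fold in pooled neuronal or astrocyte-like nuclei (other subunits as counts only), and the 3 genes most like each member across classes. Ratios to the sham control have 95% exact conditional binomial intervals. A sum of 0 was set to 3 UMIs for calls, and no ratio is given there. All 3 days share the sham control library. Scripts were tested on simulated data. The alternatives were TMM scaling (edgeR 4.0.16), free RNA subtracted, nuclei thinned to 1000 UMIs, the mean of nuclei, more than 2000 UMIs, doublets kept, unnamed neuronal clusters added, equal class weights, other UMI minimums, mitochondrial UMIs left out, and leaving out each library. A further 1, classes with at least 20 nuclei in every library, was chosen after seeing the data. Promoter windows, each 250 bases, were found for 7 of the 7 members.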

Additional observations from a re-analysis of the deposited data

Results flagged for a closer look

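On day 3, Gabrb2 differed from the sham control in opposite directions in 3 non-neuronal classes, and this difference between classes was not tested. The log2 ratio was 1.07 in oligodendrocyte-like nuclei (30 and 81 UMIs in the sham control and on day 3), -0.62 in oligodendrocyte precursor-like nuclei (76 and 78 UMIs) and -2.16 in microglia-like nuclei (54 and 18 UMIs). In the precursor-like nuclei the direction turned under 2 alternatives. The neuronal Gabrb2 level was 419.7 CPM in the sham control and 417.5 CPM on day 3.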

How the results depend on the processing

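For the 7 genes summed in neuronal nuclei, the log2 ratio on day 1, -0.16, was -0.21 with TMM scaling, -0.18 thinned to 1000 UMIs per nucleus and -0.20 with neuron classes weighted equally. On day 3 it was 0.038 with TMM in place of -0.011, and on day 7 0.013 with TMM and -0.061 with equal weights in place of -0.022. In astrocyte-like nuclei the day 1 value, -0.24, was -0.45 as the mean of nuclei, and the day 7 value, -0.16, was -0.042 thinned. Astrocyte-like against neuronal nuclei, Gabra2 was at -0.22 both thinned and as the mean of nuclei in place of 0.09. Gabra3 was at -2.40 as the mean of nuclei, and Gabrb2 at -3.03 thinned and -3.06 as the mean of nuclei. Without 1 library each, these ratios ranged from 0.02 to 0.14 for Gabra2, -1.88 to -1.62 for Gabra3, -1.25 to -0.70 for Gabra4, -2.61 to -1.61 for Gabra5, 1.13 to 1.36 for Gabrb1, -2.26 to -1.86 for Gabrb2 and -1.88 to -1.37 for Gabrg3. Gabra5 moved most without day 7, where 1 UMI was found. Calls past 1.5-fold numbered 55 of 258 (14 higher, 41 lower), in 18 classes, and 113 of 378 with no minimum of UMIs. They numbered 82 thinned, of which 26 were shared with the 55, and 37 to 76 in the other alternatives.

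Directions turned in 10 values. Thinned, the log2 ratios were 0.21 for Gabra2 in Lhx6 interneuron-like nuclei on day 1, 0.18 for Gabra2 and 0.27 for Gabrg3 in middle-layer nuclei on days 1 and 3, and 1.73 and 1.92 for Gabrb2 in oligodendrocyte precursor-like nuclei on days 1 and 3. In microglia-like nuclei they were 0.11 for Gabra2 on day 3, -0.94 for Gabrb1 on day 1 and 0.49 for Gabrb2 on day 7. As the mean of nuclei they were 0.20 for Gabra2 in microglia-like and 0.14 for Gabrb2 in precursor-like nuclei on day 3. The cause was not tested. The highest class was the same for 7 of 7 genes except thinned (5), where it was dentate granule neuron-like for Gabra2 and striatal projection neuron-like for Gabrg3, and as the mean of nuclei (6), where it was Adarb2 interneuron-like for Gabrb2. Gabra5 with free RNA subtracted and Gabra3 thinned gave no astrocyte-like ratio, since a library was at 0. No paired analysis was possible because the groups share fewer than 2 replicate numbers. With 1 library per group, day and library cannot be told apart.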
